A study of Arabidopsis thaliana with 20 samples.

Results

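Arabidopsis thaliana carries 2 large families of primary auxin-responsive genes, named Aux/IAA and SAUR, and their leaf transcripts were followed in ilp1-1 and Col-0 plants moved into high light. The genes were taken by their descriptions: a gene entered where the deposited gene description held "auxin-responsive protein" or "SAUR". This rule picked 71 of 33104 genes, 23 Aux/IAA genes and 48 SAUR genes. Expression was read from whole leaves in 20 libraries of poly-A RNA, 2 for each of 10 groups. ilp1-1 is a mutant line named for ILP1, a nuclear protein linked to splicing and to endoreduplication, and Col-0 is the wild-type accession it is set against. In both genotypes the plants were 4 weeks old and had grown under a day of 10 h and a night of 14 h. The 0 h leaves were taken after 2 h of light at 100 µmol photons per square metre per second. The 4, 8 and 16 h leaves had been at 500 µmol photons per square metre per second since then. The 30 h leaves had spent 24 h in high light and then 6 h back in normal light. High light and time of day therefore change together, leaves held in normal light to those later hours were not analysed here, and the 30 h harvest falls at a clock hour between those of 4 h and 8 h. The study asked how components of the spliceosome bear on acclimation to high light.

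Aux/IAA proteins are short-lived nuclear repressors. They bind auxin response factors (ARF) and recruit TOPLESS corepressors, until auxin joins them to the TIR1/AFB F-box receptors and they are degraded. Most Aux/IAA genes are themselves transcribed in response to auxin, which closes a feedback loop. SAUR genes encode small proteins whose transcripts appear soon after auxin is given. Proteins of the SAUR19 group inhibit PP2C.D phosphatases, which keeps plasma membrane proton pumps active and lets the cell wall loosen and the cell expand.

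Degradation of an Aux/IAA protein rests on a short degron, and most Aux/IAA genes carry its coding sequence. The stretches below are from 6 genes on which the results turn. They are coding sequence of the TAIR10.1 reference from RefSeq, 27 bases each, in lower case with the 12 bases of the degron core in capitals. The core was searched as GG, any base, TGGCC, any base, CC and any base.
IAA9: attgtcGGTTGGCCTCCAgtgagatcc
IAA8: gttgttGGTTGGCCTCCAatcagatca
IAA17: gttgtgGGATGGCCACCGgtgagatca
IAA7: gtggtgGGATGGCCACCTgtgaggaac
IAA16: gttgtgGGATGGCCACCGgtacgatct
IAA1: atcgttGGATGGCCTCCAgtgagatct
The core was found in frame in 18 of the 23 Aux/IAA genes, whose mean level over all libraries was between 0.556 and 79.2 FPKM. FPKM are fragments per kilobase of gene, here scaled by a size factor of each library. The other 5 genes, IAA20, IAA30, IAA32, IAA33 and IAA34, had means between 0.161 and 0.989 FPKM. None of the SAUR genes held it, and 34 of 27419 protein-coding genes did.

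Many SAUR genes sit in tandem. With gaps of up to 10000 bases allowed, 24 members fell into 6 clusters, and 3 of these are followed as sums here. SAUR19 to SAUR24 lie on chromosome 5 (chr5:5962773-5984308). SAUR61 to SAUR65 (chr1:10301377-10308246) and SAUR66 to SAUR68 (chr1:10319732-10323239) lie on chromosome 1. All coordinates are those of the deposited tables, which match TAIR10.1 for all 71 members. The stretch below shows how alike the copies on chromosome 5 are, each aligned to SAUR20, with capitals where a base differs from SAUR20.
SAUR19 (bases 70 to 129 of 273): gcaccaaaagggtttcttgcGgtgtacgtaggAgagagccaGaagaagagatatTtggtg
SAUR20 (bases 70 to 129 of 276): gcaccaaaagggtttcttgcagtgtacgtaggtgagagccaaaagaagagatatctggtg
SAUR21 (bases 64 to 123 of 267): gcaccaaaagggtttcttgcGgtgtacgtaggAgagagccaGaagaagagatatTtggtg
SAUR22 (bases 70 to 129 of 273): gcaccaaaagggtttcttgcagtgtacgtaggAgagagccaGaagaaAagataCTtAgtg
SAUR23 (bases 70 to 129 of 273): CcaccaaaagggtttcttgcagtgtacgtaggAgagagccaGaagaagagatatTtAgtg
SAUR24 (bases 70 to 129 of 273): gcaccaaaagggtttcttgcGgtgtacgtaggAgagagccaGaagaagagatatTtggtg
Over the whole coding sequence, identity between these 6 genes ran from 87.7 to 95.2% over 15 pairs. Reads from one copy may have been assigned to another or discarded, so single values of SAUR19 to SAUR24 are uncertain and the summed reads of the cluster are given beside them. SAUR62 and SAUR75 are alike at 97.0% and carry the same limit. Among SAUR61 to SAUR68 on chromosome 1, identity ran from 45.4 to 89.3% over 28 pairs. Single values of the most alike copies there are uncertain too. The highest identity was between SAUR63 and SAUR67, so reads may also have passed between the sums that hold them. Over all pairs, the median identity was 47.0% in the Aux/IAA genes (253 pairs) and 45.9% in the SAUR genes (1128 pairs).

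Recovered depth ran from 11.39 to 18.95 M reads per library, and the 71 genes took 0.0796 to 0.144% of the reads. The labels do not say whether the 2 libraries of a group came from separate plants. The p-values rest on the spread within groups, pooled over all 10 groups and drawn toward that of other genes. This spread may be technical. ILP1 itself was not called lower in ilp1-1 than in Col-0 at any time. In ilp1-1 it had 7.17 and 8.9 FPKM at 0 h, 4.67 and 5.03 at 4 h, 4.79 and 5.19 at 8 h, 4.32 and 2.72 at 16 h and 3.33 and 3.02 at 30 h. In Col-0 it had 2.63 and 3.88 FPKM at 0 h, 3.32 and 2.91 at 4 h, 3.16 and 3.49 at 8 h, 3.37 and 3.45 at 16 h and 2.66 and 3.05 at 30 h. The difference at 0 h was 1.09 ± 0.18 on the log2 scale (limma, adjusted p = 0.000381). ILP1 was also called higher in ilp1-1 at 4 h (0.51 ± 0.18, adjusted p = 0.039). So it was over the mean of 5 times (0.44 ± 0.079, adjusted p = 0.000194), but not at 8, 16 or 30 h. Within ilp1-1 it was lower than at 0 h at 4, 8, 16 and 30 h (-0.62, -0.59, -1.01 and -1.11). Every genotype direction below is therefore that of libraries as labelled. Plastid genes took 0.203 and 0.453% of reads in ilp1-1 at 4 h and 0.0995 and 0.129% in ilp1-1 at 8 h, and 0.0188 to 0.0349% in the other 16 libraries. The part of this in the results at those times was not tested. The summed level of 5 leaf mesophyll markers was 17445 to 48788 FPKM (median 24709) in ilp1-1 and 28031 to 52963 FPKM (median 38714) in Col-0. That of 3 root markers was at most 0.0513 FPKM in ilp1-1 and 0.0451 FPKM in Col-0, with the root hair genes RHD6 and EXPA7 at 0 in every library. The sum of 4 guard cell markers was 9.56 to 30.5 FPKM (median 26.3) in ilp1-1 and 7.49 to 24.3 FPKM (median 18.8) in Col-0, and that of 3 vascular markers 55.1 to 129 FPKM (median 74.2) in ilp1-1 and 56.1 to 100.8 FPKM (median 79.5) in Col-0. For 4 markers of dividing cells it was 10.4 to 25.8 FPKM (median 18.6) in ilp1-1 and 10.03 to 30.2 FPKM (median 22.5) in Col-0. For 4 shoot meristem markers it was 1.42 to 5.87 FPKM (median 2.88) in ilp1-1 and 2.77 to 5.75 FPKM (median 3.53) in Col-0, and for 2 flower markers 0.324 to 2.54 FPKM (median 0.864) in ilp1-1 and 0.122 to 0.747 FPKM (median 0.332) in Col-0. The part of these marker levels in the genotype differences below was not tested.

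Both families were expressed in the leaf, at different levels. The median over genes of the mean level was 8.77 FPKM for the Aux/IAA genes, which ran from 0.161 to 79.2 FPKM, and 1.28 FPKM for the SAUR genes, which ran from 0 to 36.0 FPKM. The 6 most abundant Aux/IAA genes were IAA9, IAA8, IAA17 (AXR3), IAA7 (AXR2), IAA16 and IAA2, and the 6 most abundant SAUR genes were SAUR78, SAUR50, SAUR71, SAUR6, SAUR32 and SAUR41. A level of at least 1 FPKM in at least 2 libraries, asked of every gene, was reached by 51 members, 20 Aux/IAA and 31 SAUR genes. Of the 51, IAA34, SAUR52, SAUR19 and SAUR22 reached it through Col-0, with 0, 1, 0 and 1 libraries of ilp1-1 at 1 FPKM, so these 4 are given between genotypes by their values and without a test. The other 20 members were not tested. Their highest value in any library was 1.29 FPKM, in SAUR77. Of these, 6 SAUR genes (SAUR13, SAUR18, SAUR39, SAUR40, SAUR43 and SAUR47) were listed at 0 in all libraries. A zero allows up to 3 reads in its library, for counting error only. In whole leaves, fewer cells of a type and less RNA per cell cannot be told apart, and this holds for every level below.

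**Figure D1:**
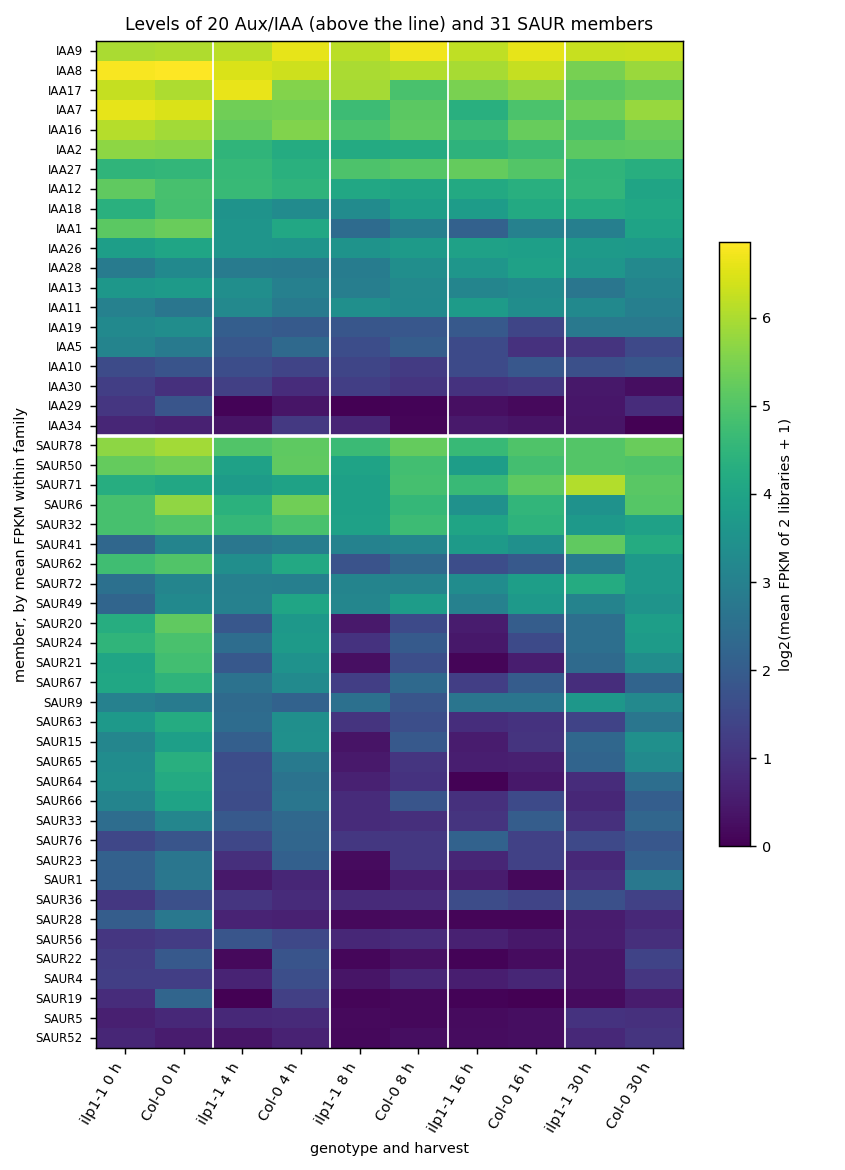
Mean level of each tested gene in each group, as log2(FPKM + 1) of the mean of 2 libraries, with the 20 Aux/IAA genes above the line and the 31 SAUR genes below it, and ilp1-1 left of Col-0 at each time. Brighter cells are higher levels. Most genes have their brightest cells at 0 h, and a few SAUR genes have theirs at 30 h.

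The first question was what the shift into high light did to these transcripts. In both genotypes most of them fell. Fold changes here and below are on the scale of log2(FPKM + 1), which understates the change of genes at low levels, and a gene was called at an adjusted p under 0.05 (limma, Benjamini-Hochberg over the 19311 tested genes). At 4 h, 3 of the 51 tested members were higher than at 0 h and 29 were lower in ilp1-1, against 20.6% and 20.4% of all tested genes. In Col-0 the counts at 4 h were 2 higher and 26 lower, against 22.6% and 23.5%. By 8 h they were 5 higher and 33 lower in ilp1-1 (23.8% and 23.2% of all genes) and 4 higher and 34 lower in Col-0 (24.9% and 25.1%). At 16 h ilp1-1 had 8 members higher and 32 lower (21.7% and 22.1% of all genes), and Col-0 had 5 higher and 33 lower (22.2% and 19.8%). After the return to normal light, at 30 h, 6 were higher and 31 lower than at 0 h in ilp1-1 (27.6% and 24.5% of all genes) and 4 higher and 26 lower in Col-0 (20.8% and 19.7%). The lower calls were thus above the share over all genes at each time in both genotypes, and the higher calls below it. Of the 51 genes, 25 were lower than at 0 h at all 4 later times in ilp1-1, 22 in Col-0 and 19 in both, against 9.14%, 7.80% and 5.04% of all tested genes. These counts, and the lower calls at each time, hold IAA29 and SAUR28, which passed the filter through the 0 h libraries. Scaling to total reads in place of the deposited denominators raised the share of higher among all called genes at 30 h to 69.3% from 53% in ilp1-1 and to 62.7% from 51.4% in Col-0, and at 16 h to 69.5% from 49.6% in ilp1-1.

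The median change was larger in the SAUR than in the Aux/IAA genes at 4, 8 and 16 h in both genotypes. For the 31 SAUR genes it was -0.86 (-0.70 at the floor), -1.03, -1.34 and -0.92 at 4, 8, 16 and 30 h in ilp1-1, and -0.68, -1.61, -1.24 and -0.59 in Col-0. The value at the floor sets a library listed at 0 to 3 reads. For the 20 Aux/IAA genes it was -0.34, -0.75, -0.67 and -0.62 in ilp1-1, and -0.49, -0.77, -0.50 and -0.63 in Col-0. Over all tested genes these medians lay between -0.039 and 0.023. The highest group mean of a gene stood at 0 h for 12 of 20 Aux/IAA genes in ilp1-1 and 13 in Col-0, and for 21 of 31 SAUR genes in ilp1-1 and 20 in Col-0. A smaller set stood highest at 30 h, 7 SAUR genes in ilp1-1 and 5 in Col-0.

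Among the abundant Aux/IAA repressors, IAA7, IAA16, IAA8 and IAA2 were highest at 0 h in both genotypes. In ilp1-1, IAA7 had 91.9 and 102 FPKM at 0 h, 38.7 and 41.9 at 4 h, 27.1 and 23.1 at 8 h, 19.5 and 18.5 at 16 h and 34.1 and 44.9 at 30 h. In Col-0, IAA7 had 91.5 and 83.9 FPKM at 0 h, 43.3 and 40.1 at 4 h, 31.2 and 37.2 at 8 h, 29.9 and 28.8 at 16 h and 53.6 and 55.3 at 30 h. IAA7 is the gene of the auxin-resistant axr2 mutants, and all 8 libraries of a genotype in high light or after it lay below both of its 0 h libraries. Its change at 16 h was -2.29 ± 0.12, adjusted p = 2.82e-10, in ilp1-1 and -1.55 ± 0.12, adjusted p = 3.11e-08, in Col-0. In ilp1-1, IAA16 had 63.2 and 70.7 FPKM at 0 h, 36.2 and 37.5 at 4 h, 29.8 and 28.4 at 8 h, 25.6 and 23.4 at 16 h and 26.1 and 29.9 at 30 h. In Col-0, IAA16 had 60.5 and 58.6 FPKM at 0 h, 48.8 and 43.3 at 4 h, 34.6 and 34.9 at 8 h, 38.8 and 36.6 at 16 h and 38.3 and 37.9 at 30 h. In IAA16, whose dominant mutants respond weakly to auxin and abscisic acid, the change at 16 h was -1.41 ± 0.084, adjusted p = 1.5e-09, in ilp1-1 and -0.65 ± 0.084, adjusted p = 1.14e-05, in Col-0. In ilp1-1, IAA8 had 112 and 107 FPKM at 0 h, 90.2 and 85.7 at 4 h, 61.6 and 62.4 at 8 h, 62.4 and 60.7 at 16 h and 42.8 and 43.1 at 30 h. In Col-0, IAA8 had 114 and 116 FPKM at 0 h, 75.9 and 83 at 4 h, 65.8 and 66.7 at 8 h, 76.1 and 73.9 at 16 h and 58.2 and 54.4 at 30 h. IAA8 was lowest at 30 h in both genotypes (-1.33 ± 0.060, adjusted p = 8.89e-11, in ilp1-1 and -1.02 ± 0.060, adjusted p = 4.33e-09, in Col-0). In ilp1-1, IAA2 had 51 and 50.4 FPKM at 0 h, 19.6 and 23 at 4 h, 16.7 and 17.8 at 8 h, 19 and 22 at 16 h and 27.6 and 40.6 at 30 h. In Col-0, IAA2 had 48.1 and 49 FPKM at 0 h, 20.4 and 15.1 at 4 h, 16.8 and 18.8 at 8 h, 27.3 and 21.4 at 16 h and 40.5 and 29.5 at 30 h. IAA2, an early auxin-induced gene, had its largest fall at 8 h in ilp1-1 (-1.50 ± 0.18, adjusted p = 4.38e-06) and at 4 h in Col-0 (-1.41 ± 0.18, adjusted p = 1.04e-05), and the genotypes were not called different at any time.

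Less abundant auxin-induced Aux/IAA genes fell too. In ilp1-1, IAA1 had 31.1 and 36.5 FPKM at 0 h, 10.5 and 11.4 at 4 h, 4.74 and 3.73 at 8 h, 3.6 and 3.13 at 16 h and 6.29 and 7.39 at 30 h. In Col-0, IAA1 had 35.1 and 40.6 FPKM at 0 h, 15.1 and 17.5 at 4 h, 6.24 and 7.27 at 8 h, 8.05 and 6.09 at 16 h and 16 and 13.3 at 30 h. IAA1 is the gene of the axr5 mutant, and its fall at 8 h was -2.73 ± 0.15, adjusted p = 6.61e-10, in ilp1-1 and -2.32 ± 0.15, adjusted p = 3.5e-09, in Col-0. In ilp1-1, IAA19 had 8.03 and 9.21 FPKM at 0 h, 3.25 and 3.02 at 4 h, 1.36 and 3.73 at 8 h, 1.91 and 3.6 at 16 h and 4.59 and 7.2 at 30 h. In Col-0, IAA19 had 8.65 and 9.93 FPKM at 0 h, 3.18 and 2.5 at 4 h, 1.95 and 3.37 at 8 h, 1.51 and 1.88 at 16 h and 5.04 and 6.67 at 30 h. IAA19, known for its part in bending of the hypocotyl, fell by 8 h in both genotypes (-1.52 ± 0.30, adjusted p = 0.000531, in ilp1-1 and -1.52 ± 0.30, adjusted p = 0.000515, in Col-0) and was not called different from 0 h at 30 h. In ilp1-1, IAA29 had 1.04 and 1.17 FPKM at 0 h, 0 and 0.106 at 4 h, 0 and 0 at 8 h, 0.15 and 0.262 at 16 h and 0.293 and 0.385 at 30 h. In Col-0, IAA29 had 1.71 and 3.34 FPKM at 0 h, 0.366 and 0.263 at 4 h, 0.11 and 0 at 8 h, 0.198 and 0.0569 at 16 h and 0.408 and 1.27 at 30 h. IAA29, a gene known to be induced by shade, was listed at 0 in both ilp1-1 libraries at 8 h. Every later IAA29 library of a genotype lay below both of its 0 h libraries. Outside 0 h, IAA29 reached 1 FPKM only in Col-0 30 h replicate 2, so it passed the filter through the 0 h libraries. Its fall is therefore given by its values and without a test.

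IAA9 went the other way. In ilp1-1, IAA9 had 63.3 and 60.7 FPKM at 0 h, 69.6 and 70.4 at 4 h, 70.9 and 69.8 at 8 h, 71.3 and 74.6 at 16 h and 73.8 and 79.3 at 30 h. In Col-0, IAA9 had 64.7 and 64.8 FPKM at 0 h, 94 and 98.1 at 4 h, 97.8 and 109 at 8 h, 97.5 and 96.7 at 16 h and 79.9 and 78.2 at 30 h. Its tomato counterpart is known for leaf shape and fruit set, and in Arabidopsis leaves it was the most abundant of the 71 genes. It rose at every later time in both genotypes. At 4 h the rise in Col-0 was 0.56 ± 0.062, adjusted p = 1.98e-06, and both Col-0 libraries lay above those of ilp1-1. The rise in ilp1-1 at 4 h was 0.17 ± 0.062, adjusted p = 0.0353, and this call ended without ilp1-1 0 h replicate 2, ilp1-1 4 h replicate 1 or ilp1-1 4 h replicate 2 (0.14 to 0.18), and with the libraries of the contrast alone (adjusted p = 0.0921). In ilp1-1, IAA11 had 7.39 and 6.63 FPKM at 0 h, 7.4 and 9.25 at 4 h, 9.46 and 9.94 at 8 h, 13 and 11.9 at 16 h and 8.83 and 8.18 at 30 h. In Col-0, IAA11 had 4.54 and 6.32 FPKM at 0 h, 5.8 and 6.37 at 4 h, 9.52 and 7.48 at 8 h, 8.66 and 9.83 at 16 h and 6.77 and 6.91 at 30 h. IAA11 was higher than at 0 h at 8 h (0.42 ± 0.15, adjusted p = 0.0265, in ilp1-1 and 0.57 ± 0.15, adjusted p = 0.00396, in Col-0) and at 16 h (0.75 ± 0.15, adjusted p = 0.000536, in ilp1-1 and 0.68 ± 0.15, adjusted p = 0.00122, in Col-0). The call at 8 h ended in ilp1-1 without ilp1-1 0 h replicate 2 or either ilp1-1 8 h library (0.35 to 0.45) and in Col-0 without Col-0 0 h replicate 1 or Col-0 8 h replicate 1 (0.37 to 0.41). It also ended in Col-0 with the libraries of the contrast alone (adjusted p = 0.0738). In ilp1-1, IAA28 had 6.29 and 6.05 FPKM at 0 h, 5.67 and 6.69 at 4 h, 7.08 and 5.59 at 8 h, 10.5 and 12 at 16 h and 13.3 and 8.84 at 30 h. In Col-0, IAA28 had 8.42 and 8.76 FPKM at 0 h, 4.51 and 7.39 at 4 h, 10.6 and 8.52 at 8 h, 13.4 and 15.1 at 16 h and 7.48 and 9.12 at 30 h. IAA28, known for limiting lateral root formation, was higher at 16 h in both genotypes (0.77 ± 0.20, adjusted p = 0.00518, in ilp1-1 and 0.67 ± 0.20, adjusted p = 0.0135, in Col-0), where the Col-0 call ended without Col-0 0 h replicate 1 or Col-0 16 h replicate 2 (0.59 to 0.64).

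IAA17, the gene of the auxin-resistant axr3 mutants, moved in opposite directions at 4 h. In ilp1-1, IAA17 had 79.7 and 70.9 FPKM at 0 h, 99.6 and 96 at 4 h, 61.6 and 58.5 at 8 h, 45.4 and 41.9 at 16 h and 34.6 and 31.9 at 30 h. In Col-0, IAA17 had 61.3 and 65.2 FPKM at 0 h, 49.3 and 45 at 4 h, 32.6 and 24.7 at 8 h, 52.3 and 51.9 at 16 h and 37.9 and 38.2 at 30 h. The ilp1-1 libraries of 4 h and 8 h held about 2 times the Col-0 level, and the groups did not overlap there. From 0 h to 4 h it rose in ilp1-1 (0.37 ± 0.10, adjusted p = 0.00788) and fell in Col-0 (-0.42 ± 0.10, adjusted p = 0.00337), a difference of 0.79 ± 0.14, adjusted p = 0.00269. The rise in ilp1-1 was not called without ilp1-1 0 h replicate 2 or ilp1-1 4 h replicate 1 (0.29 to 0.35). The ilp1-1 libraries of 4 h and 8 h also carry the raised plastid reads given above, whose part was not tested. At 16 h and 30 h the genotypes were not called different (-0.25 ± 0.10, adjusted p = 0.0829, and -0.19 ± 0.10, adjusted p = 0.172).

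The SAUR19 to SAUR24 cluster, the group known to inhibit PP2C.D phosphatases, was high at 0 h and nearly gone at 8 h and 16 h. Its reads were summed per library and given per M of the FPKM denominator. These sums were 33.2 and 50.1 in ilp1-1 and 72.4 and 68.4 in Col-0 at 0 h, 6.18 and 8.89 against 33.1 and 24.7 at 4 h, 1.23 and 1.33 against 5.2 and 6.67 at 8 h, 1.35 and 0.943 against 5.08 and 4.52 at 16 h and 8.46 and 11.8 against 29.8 and 26 at 30 h. At each time both ilp1-1 libraries lay below both Col-0 libraries, and the level came back in part at 30 h in both genotypes. In ilp1-1, SAUR20 had 15.3 and 21.7 FPKM at 0 h, 2.51 and 2.81 at 4 h, 0.24 and 0.52 at 8 h, 0.852 and 0 at 16 h and 4.26 and 5.04 at 30 h. In Col-0, SAUR20 had 34.9 and 36.4 FPKM at 0 h, 12.7 and 10.3 at 4 h, 1.17 and 2.71 at 8 h, 2.81 and 3.39 at 16 h and 14.6 and 12 at 30 h. SAUR20 had the highest mean level of the 6 at 0 h in Col-0 and was lower in ilp1-1 at 4 h (-1.77 ± 0.27, adjusted p = 0.000152), 16 h (-1.59 ± 0.27, adjusted p = 0.000416) and 30 h (-1.34 ± 0.27, adjusted p = 0.00131). At 0 h the difference was -0.93 ± 0.27, adjusted p = 0.023, and that call ended without ilp1-1 0 h replicate 1, Col-0 0 h replicate 1 or Col-0 0 h replicate 2 (-0.96 to -0.69), and with a pseudocount of 0.1 (adjusted p = 0.35) or the libraries of the contrast alone (adjusted p = 0.0533). In ilp1-1, SAUR21 had 12 and 18.8 FPKM at 0 h, 1.5 and 3.96 at 4 h, 0.173 and 0.28 at 8 h, 0.153 and 0 at 16 h and 3.21 and 5.05 at 30 h. In Col-0, SAUR21 had 25.5 and 27.3 FPKM at 0 h, 11.5 and 9.24 at 4 h, 1.76 and 2.45 at 8 h, 0.504 and 0.435 at 16 h and 9.54 and 9.1 at 30 h. SAUR21 was lower in ilp1-1 at 4 h (-1.68 ± 0.27, adjusted p = 0.000232) and 8 h (-1.33 ± 0.27, adjusted p = 0.00167). In ilp1-1, SAUR22 had 0.643 and 2.02 FPKM at 0 h, 0.0845 and 0.182 at 4 h, 0.194 and 0 at 8 h, 0 and 0.0902 at 16 h and 0.168 and 0.473 at 30 h. In Col-0, SAUR22 had 2.39 and 3.22 FPKM at 0 h, 3.46 and 1.47 at 4 h, 0.188 and 0.285 at 8 h, 0.34 and 0 at 16 h and 1.5 and 1.74 at 30 h. At 4 h both ilp1-1 libraries of SAUR22 lay below both of Col-0.

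In ilp1-1, SAUR19 had 0.927 and 0.70 FPKM at 0 h, 0 and 0 at 4 h, 0 and 0.124 at 8 h, 0.102 and 0 at 16 h and 0.198 and 0.112 at 30 h. In Col-0, SAUR19 had 3.94 and 3.49 FPKM at 0 h, 1.61 and 1.33 at 4 h, 0 and 0.224 at 8 h, 0 and 0 at 16 h and 0.355 and 0.513 at 30 h. SAUR19 stood below 1 FPKM in every ilp1-1 library, and at 0 h and 4 h both ilp1-1 libraries lay below both of Col-0. In ilp1-1, SAUR24 had 17.9 and 24.9 FPKM at 0 h, 4.33 and 4.66 at 4 h, 1.27 and 0.752 at 8 h, 0.308 and 0.43 at 16 h and 3.9 and 5.42 at 30 h. In Col-0, SAUR24 had 33.5 and 23.6 FPKM at 0 h, 14.1 and 10.8 at 4 h, 2.02 and 3.74 at 8 h, 1.62 and 2.22 at 16 h and 14.9 and 10.3 at 30 h. SAUR24 fell by 16 h in both genotypes, with a log2 change of -4.02 ± 0.25, adjusted p = 3.01e-09, in ilp1-1 and -3.33 ± 0.25, adjusted p = 2.9e-08, in Col-0. In ilp1-1, SAUR23 had 2.11 and 4.59 FPKM at 0 h, 0.779 and 1.01 at 4 h, 0 and 0.29 at 8 h, 0.555 and 0.748 at 16 h and 0.619 and 0.872 at 30 h. In Col-0, SAUR23 had 5.87 and 5.12 FPKM at 0 h, 4.06 and 2.5 at 4 h, 2.0 and 0.35 at 8 h, 2.09 and 0.901 at 16 h and 2.86 and 3.81 at 30 h. In both genotypes all 6 genes of the cluster had their highest mean at 0 h. SAUR23 was lower in ilp1-1 at 4 h (-1.16 ± 0.35, adjusted p = 0.0205) and 30 h (-1.31 ± 0.35, adjusted p = 0.00902).

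The clusters on chromosome 1, which include SAUR63, a promoter of organ growth, also fell in high light in both genotypes. The same sums for SAUR61 to SAUR65 were 36 and 56.5 in ilp1-1 and 76.5 and 61.9 in Col-0 at 0 h, 16 and 12.6 against 31.2 and 28.4 at 4 h, 3.4 and 3.45 against 5.34 and 7.66 at 8 h, 2.57 and 2.9 against 3.81 and 3.65 at 16 h and 10.3 and 10.5 against 26 and 24.8 at 30 h. Those of SAUR66 to SAUR68 were 18.8 and 22.3 in ilp1-1 and 31.6 and 31.5 in Col-0 at 0 h, 7.44 and 4.75 against 13.4 and 11.5 at 4 h, 1.81 and 2.04 against 4.5 and 7.09 at 8 h, 2.18 and 1.95 against 4.65 and 3.94 at 16 h and 0.752 and 1.98 against 6.58 and 5.44 at 30 h. Both sums were lower in ilp1-1 than in Col-0 at each time with no overlap, and at 30 h the second sum in ilp1-1 was within or below its range of 8 h and 16 h. In ilp1-1, SAUR64 had 6.12 and 12.9 FPKM at 0 h, 2.04 and 2.27 at 4 h, 0.725 and 0.349 at 8 h, 0.0716 and 0 at 16 h and 0.489 and 1.18 at 30 h. In Col-0, SAUR64 had 21.6 and 13 FPKM at 0 h, 5.76 and 4.5 at 4 h, 0.783 and 1.26 at 8 h, 0.66 and 0.0813 at 16 h and 5.08 and 4.16 at 30 h. The change of SAUR64 at 16 h was -3.27 ± 0.31, adjusted p = 3.8e-07, in ilp1-1 and -3.73 ± 0.31, adjusted p = 8.97e-08, in Col-0, and at 30 h it was lower in ilp1-1 than in Col-0 (-1.64 ± 0.31, adjusted p = 0.000787). In ilp1-1, SAUR62 had 23.2 and 29 FPKM at 0 h, 11.1 and 7.73 at 4 h, 2.17 and 2.54 at 8 h, 1.85 and 2.26 at 16 h and 6.39 and 6.27 at 30 h. In Col-0, SAUR62 had 34 and 28.1 FPKM at 0 h, 17.2 and 16 at 4 h, 3.54 and 4.51 at 8 h, 2.44 and 3.15 at 16 h and 13.2 and 11.1 at 30 h. The fall of SAUR62 in ilp1-1 at 8 h was -3.01 ± 0.17, adjusted p = 9.01e-10. In ilp1-1, SAUR63 had 7.26 and 17.1 FPKM at 0 h, 5.14 and 3.61 at 4 h, 1.2 and 0.912 at 8 h, 1.28 and 0.448 at 16 h and 1.46 and 1.76 at 30 h. In Col-0, SAUR63 had 18.4 and 16.8 FPKM at 0 h, 11.2 and 8.12 at 4 h, 1.75 and 2.47 at 8 h, 1.41 and 0.606 at 16 h and 6.34 and 4.59 at 30 h. At 30 h SAUR63 stood below its 0 h level in ilp1-1 (-2.23 ± 0.32, adjusted p = 2.59e-05). In ilp1-1, SAUR65 had 7.15 and 11.1 FPKM at 0 h, 1.97 and 2.12 at 4 h, 0.243 and 0.526 at 8 h, 0.215 and 0.753 at 16 h and 4.06 and 3.24 at 30 h. In Col-0, SAUR65 had 19.4 and 18.5 FPKM at 0 h, 5.43 and 6.78 at 4 h, 0.707 and 1.43 at 8 h, 0.378 and 0.652 at 16 h and 7.44 and 10.07 at 30 h. Between genotypes SAUR65 was lower in ilp1-1 at 0 h (-1.01 ± 0.24, adjusted p = 0.00646), with -1.21 ± 0.24, adjusted p = 0.00114 for the 4 h libraries. The call at 0 h ended without ilp1-1 0 h replicate 1 (-0.73), and with a pseudocount of 0.1 (adjusted p = 0.0935) or the libraries of the contrast alone (adjusted p = 0.0629).

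In ilp1-1, SAUR66 had 7.16 and 8.05 FPKM at 0 h, 2.61 and 1.47 at 4 h, 0.598 and 0.972 at 8 h, 1.19 and 0.696 at 16 h and 0.583 and 0.803 at 30 h. In Col-0, SAUR66 had 13.9 and 15.8 FPKM at 0 h, 5.83 and 5.13 at 4 h, 1.89 and 3.15 at 8 h, 2.71 and 1.13 at 16 h and 3.71 and 2.6 at 30 h. SAUR66 was lower in ilp1-1 at 0 h (-0.88 ± 0.26, adjusted p = 0.0255) and 4 h (-1.12 ± 0.26, adjusted p = 0.0046). Its difference at 8 h (-0.96 ± 0.26, adjusted p = 0.0121) was not called without ilp1-1 8 h replicate 1 or Col-0 8 h replicate 2 (-0.81 and -0.70). In ilp1-1, SAUR67 had 14.2 and 17.8 FPKM at 0 h, 6.02 and 4.07 at 4 h, 1.51 and 1.34 at 8 h, 1.26 and 1.57 at 16 h and 0.23 and 1.47 at 30 h. In Col-0, SAUR67 had 22.2 and 19.8 FPKM at 0 h, 9.49 and 7.94 at 4 h, 3.27 and 4.95 at 8 h, 2.49 and 3.48 at 16 h and 3.66 and 3.58 at 30 h. SAUR67 was lower in ilp1-1 at 8 h (-1.06 ± 0.26, adjusted p = 0.00712), a call that ended without Col-0 8 h replicate 2 (-0.82), and at 30 h (-1.41 ± 0.26, adjusted p = 0.000699), where it was -0.90 without ilp1-1 30 h replicate 1. That call ended with the libraries of the contrast alone (adjusted p = 0.0631).

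**Figure D2:**
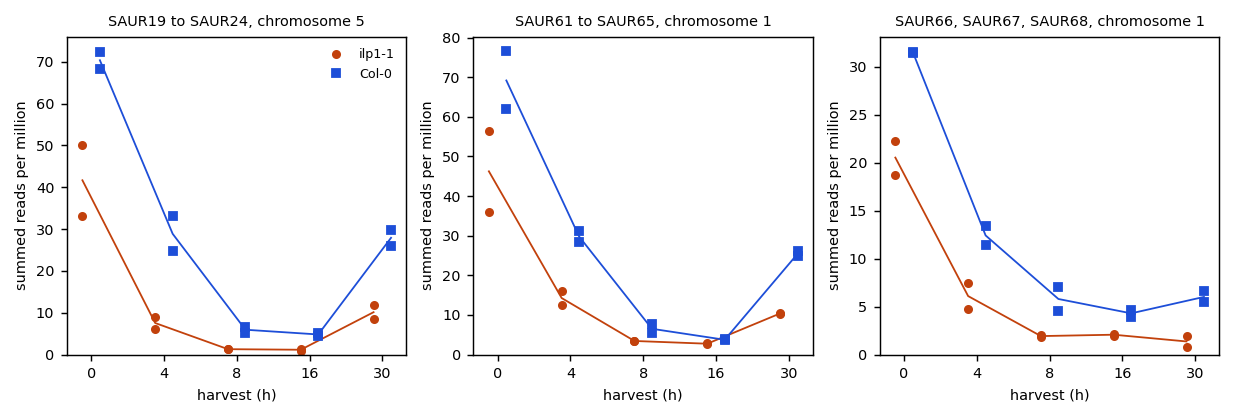
Summed reads per M of the FPKM denominator in each library for 3 tandem SAUR clusters against time (h), with ilp1-1 in orange circles and Col-0 in blue squares and lines through the means of 2 libraries. The ilp1-1 points lie below the Col-0 points at every time in all 3 clusters, and in Col-0 each mean is lowest at 8 or 16 h.

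SAUR15, SAUR1 and SAUR28 were also below their 0 h level by 8 h in both genotypes. In ilp1-1, SAUR15 had 6.83 and 8.82 FPKM at 0 h, 2.94 and 3.51 at 4 h, 0.468 and 0.101 at 8 h, 0.332 and 0.523 at 16 h and 2.43 and 5.3 at 30 h. In Col-0, SAUR15 had 15.4 and 12 FPKM at 0 h, 9.63 and 10.2 at 4 h, 1.73 and 3.76 at 8 h, 1.53 and 0.567 at 16 h and 11.1 and 8.83 at 30 h. SAUR15, also known as SAUR-AC1, was lower in ilp1-1 at 4 h (-1.37 ± 0.30, adjusted p = 0.00294), 8 h (-1.50 ± 0.30, adjusted p = 0.00162) and 30 h (-1.23 ± 0.30, adjusted p = 0.00544). In ilp1-1, SAUR1 had 2.4 and 4.11 FPKM at 0 h, 0.517 and 0.185 at 4 h, 0.0989 and 0.107 at 8 h, 0.79 and 0.092 at 16 h and 1.8 and 0.0965 at 30 h. In Col-0, SAUR1 had 5.76 and 5.39 FPKM at 0 h, 0.642 and 0.69 at 4 h, 0.672 and 0.291 at 8 h, 0.116 and 0.0997 at 16 h and 6.64 and 4.66 at 30 h. At 30 h SAUR1 in Col-0 overlapped its 0 h level, while in ilp1-1 it was below it (-1.25 ± 0.35, adjusted p = 0.00743). Its difference between genotypes there was -1.91 ± 0.35, adjusted p = 0.000603, and -1.23 without ilp1-1 30 h replicate 2. It was not called with the libraries of the contrast alone (adjusted p = 0.0633). In ilp1-1, SAUR28 had 2.0 and 4.07 FPKM at 0 h, 0.537 and 0.694 at 4 h, 0 and 0.267 at 8 h, 0 and 0.115 at 16 h and 0.747 and 0.12 at 30 h. In Col-0, SAUR28 had 4.25 and 7.06 FPKM at 0 h, 0.534 and 0.574 at 4 h, 0 and 0.362 at 8 h, 0.144 and 0 at 16 h and 1.02 and 0.415 at 30 h. Every later SAUR28 library of a genotype lay below both of its 0 h libraries. Outside 0 h, SAUR28 reached 1 FPKM only in Col-0 30 h replicate 1, so it passed the filter through the 0 h libraries. Its fall is therefore given by its values and without a test.

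SAUR78, SAUR50, SAUR6 and SAUR32 were among the 6 most abundant SAUR genes. In ilp1-1, SAUR78 had 49 and 52.8 FPKM at 0 h, 31.7 and 30.3 at 4 h, 23.8 and 25.6 at 8 h, 25.9 and 20.9 at 16 h and 31.3 and 31.5 at 30 h. In Col-0, SAUR78 had 63 and 54.9 FPKM at 0 h, 39.2 and 29.99 at 4 h, 37.9 and 35.1 at 8 h, 28.9 and 32.2 at 16 h and 38.6 and 38.4 at 30 h. SAUR78, of a group tied to ethylene receptors, was below its 0 h level at every later time in both genotypes and lower in ilp1-1 than in Col-0 at 8 h (-0.55 ± 0.12, adjusted p = 0.00263) and 16 h (-0.38 ± 0.12, adjusted p = 0.0262). In ilp1-1, SAUR50 had 31.2 and 42 FPKM at 0 h, 14.1 and 14.4 at 4 h, 14.9 and 14.4 at 8 h, 11.7 and 14.4 at 16 h and 24.2 and 38.4 at 30 h. In Col-0, SAUR50 had 41.2 and 39.4 FPKM at 0 h, 37.3 and 33 at 4 h, 27.2 and 25.3 at 8 h, 22.7 and 31.6 at 16 h and 28.2 and 33 at 30 h. SAUR50, known for light-driven growth of cotyledons, was lower in ilp1-1 in high light, at 4 h (-1.25 ± 0.19, adjusted p = 0.000135), 8 h (-0.80 ± 0.19, adjusted p = 0.00494) and 16 h (-0.995 ± 0.19, adjusted p = 0.00101). The groups overlapped at 0 h and 30 h and were not called different there. In ilp1-1, SAUR6 had 24 and 31.6 FPKM at 0 h, 20.5 and 19.2 at 4 h, 14.6 and 13 at 8 h, 8.48 and 11.8 at 16 h and 8.9 and 11.7 at 30 h. In Col-0, SAUR6 had 55.3 and 48.8 FPKM at 0 h, 43.7 and 37 at 4 h, 22.6 and 23 at 8 h, 21.5 and 22.3 at 16 h and 32.7 and 31.2 at 30 h. SAUR6 was lower in ilp1-1 at all 5 times, with a log2 difference of -0.89 ± 0.15, adjusted p = 0.000678, at 0 h and -1.55 ± 0.15, adjusted p = 1.4e-06, at 30 h. In ilp1-1, SAUR32 had 28 and 28.1 FPKM at 0 h, 21.8 and 23.3 at 4 h, 15.9 and 12.7 at 8 h, 16.4 and 14 at 16 h and 16.2 and 8.04 at 30 h. In Col-0, SAUR32 had 31.8 and 29.9 FPKM at 0 h, 25.2 and 32.2 at 4 h, 25.7 and 24.1 at 8 h, 18 and 23.1 at 16 h and 13 and 15.4 at 30 h. SAUR32, known for its effect on the apical hook, was lower in ilp1-1 at 8 h alone among the 5 times (-0.77 ± 0.22, adjusted p = 0.0146).

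In the SAUR41 group, SAUR41, SAUR71 and SAUR72 were highest in ilp1-1 at 30 h, after the return to normal light. In Col-0 SAUR41 was highest at 30 h, and SAUR71 and SAUR72 had their highest mean at 16 h. In ilp1-1, SAUR41 had 2.75 and 4.98 FPKM at 0 h, 4.99 and 6.31 at 4 h, 7.8 and 6.57 at 8 h, 12 and 12.7 at 16 h and 35.1 and 35.4 at 30 h. In Col-0, SAUR41 had 6.54 and 8.59 FPKM at 0 h, 5.93 and 6.96 at 4 h, 8.87 and 6.83 at 8 h, 10.4 and 9.21 at 16 h and 18.4 and 17.1 at 30 h. SAUR41, which promotes cell expansion when overexpressed, rose at 30 h against 0 h (2.94 ± 0.19, adjusted p = 4.48e-09, in ilp1-1 and 1.14 ± 0.19, adjusted p = 0.000169, in Col-0). It was higher in ilp1-1 than in Col-0 at 30 h (0.95 ± 0.19, adjusted p = 0.00109), while at 0 h it was lower (-0.84 ± 0.19, adjusted p = 0.00477). Its rise in ilp1-1 at 8 h (0.79 ± 0.19, adjusted p = 0.00279) was not called without ilp1-1 0 h replicate 1 (0.45) or with the libraries of the contrast alone (adjusted p = 0.0666). In ilp1-1, SAUR71 had 15.2 and 21.6 FPKM at 0 h, 12.7 and 12.7 at 4 h, 14.2 and 13.9 at 8 h, 21.5 and 26.4 at 16 h and 59.7 and 72.7 at 30 h. In Col-0, SAUR71 had 17.9 and 14.9 FPKM at 0 h, 16.7 and 12.1 at 4 h, 25.2 and 29.8 at 8 h, 34.5 and 34.6 at 16 h and 35.2 and 31.1 at 30 h. SAUR71 was lower in ilp1-1 at 8 h (-0.92 ± 0.17, adjusted p = 0.000685) and 16 h (-0.52 ± 0.17, adjusted p = 0.0296) and higher at 30 h (0.97 ± 0.17, adjusted p = 0.000313), with no overlap of libraries at these 3 times. In ilp1-1, SAUR72 had 4.69 and 4.8 FPKM at 0 h, 6.97 and 6.88 at 4 h, 8.67 and 6.34 at 8 h, 8.94 and 9.31 at 16 h and 14.4 and 21 at 30 h. In Col-0, SAUR72 had 7.05 and 8.21 FPKM at 0 h, 6.01 and 7.5 at 4 h, 7.7 and 7.19 at 8 h, 13.2 and 13.5 at 16 h and 14.3 and 9.73 at 30 h. SAUR72 rose at 30 h in ilp1-1 (1.68 ± 0.18, adjusted p = 1.53e-06). Its rise in Col-0 (0.57 ± 0.18, adjusted p = 0.0204) ended without Col-0 0 h replicate 1 (0.48) or Col-0 30 h replicate 1 (0.32), and with the libraries of the contrast alone (adjusted p = 0.1). Its rise in ilp1-1 at 8 h (0.55 ± 0.18, adjusted p = 0.0213) ended without either ilp1-1 0 h library or without ilp1-1 8 h replicate 1 (0.35 to 0.57), and with limma-voom (adjusted p = 0.0684) or the libraries of the contrast alone (adjusted p = 0.0603). At 30 h SAUR72 was higher in ilp1-1 than in Col-0 (0.52 ± 0.18, adjusted p = 0.0392), and this call ended without ilp1-1 30 h replicate 2 or Col-0 30 h replicate 2 (0.26 each), and with no filter (adjusted p = 0.0641) or the libraries of the contrast alone (adjusted p = 0.224).

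SAUR49, SAUR50 and SAUR1 lie in 1 tandem cluster of 6 members (chr4:16577180-16599568), and their courses differed. Genes outside the description rule were not placed in clusters. In ilp1-1, SAUR49 had 3.9 and 3.62 FPKM at 0 h, 6.34 and 7.89 at 4 h, 8.87 and 6.72 at 8 h, 5.55 and 8.47 at 16 h and 6.89 and 7.82 at 30 h. In Col-0, SAUR49 had 8.4 and 8.72 FPKM at 0 h, 12.7 and 17.8 at 4 h, 13.1 and 12.5 at 8 h, 10.6 and 13.5 at 16 h and 10.9 and 10.4 at 30 h. SAUR49 was higher at 4 h and 8 h than at 0 h in both genotypes, and lower in ilp1-1 than in Col-0 at 0 h (-1.01 ± 0.18, adjusted p = 0.00111) and 4 h (-0.99 ± 0.18, adjusted p = 0.000794). Its rise at 4 h was 0.77 ± 0.18, adjusted p = 0.00346, in ilp1-1 and 0.75 ± 0.18, adjusted p = 0.00356, in Col-0, and the Col-0 call ended without Col-0 4 h replicate 2 (0.52). At 8 h the rise in Col-0 (0.53 ± 0.18, adjusted p = 0.0264) ended without any 1 of the Col-0 libraries of 0 h and 8 h (0.50 to 0.56). In ilp1-1, SAUR76 had 1.14 and 2.4 FPKM at 0 h, 1.71 and 1.75 at 4 h, 1.24 and 1.12 at 8 h, 3.03 and 3.85 at 16 h and 1.79 and 1.92 at 30 h. In Col-0, SAUR76 had 2.29 and 2.77 FPKM at 0 h, 4.25 and 3.37 at 4 h, 1.31 and 1.01 at 8 h, 1.45 and 1.56 at 16 h and 1.71 and 3.6 at 30 h. SAUR76 was lower in ilp1-1 at 4 h (-0.81 ± 0.24, adjusted p = 0.0175) and higher at 16 h (0.82 ± 0.24, adjusted p = 0.0181), a call that ended without ilp1-1 16 h replicate 2 or either Col-0 16 h library (0.68 to 0.85), and with limma-voom (adjusted p = 0.0823).

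**Figure D3:**
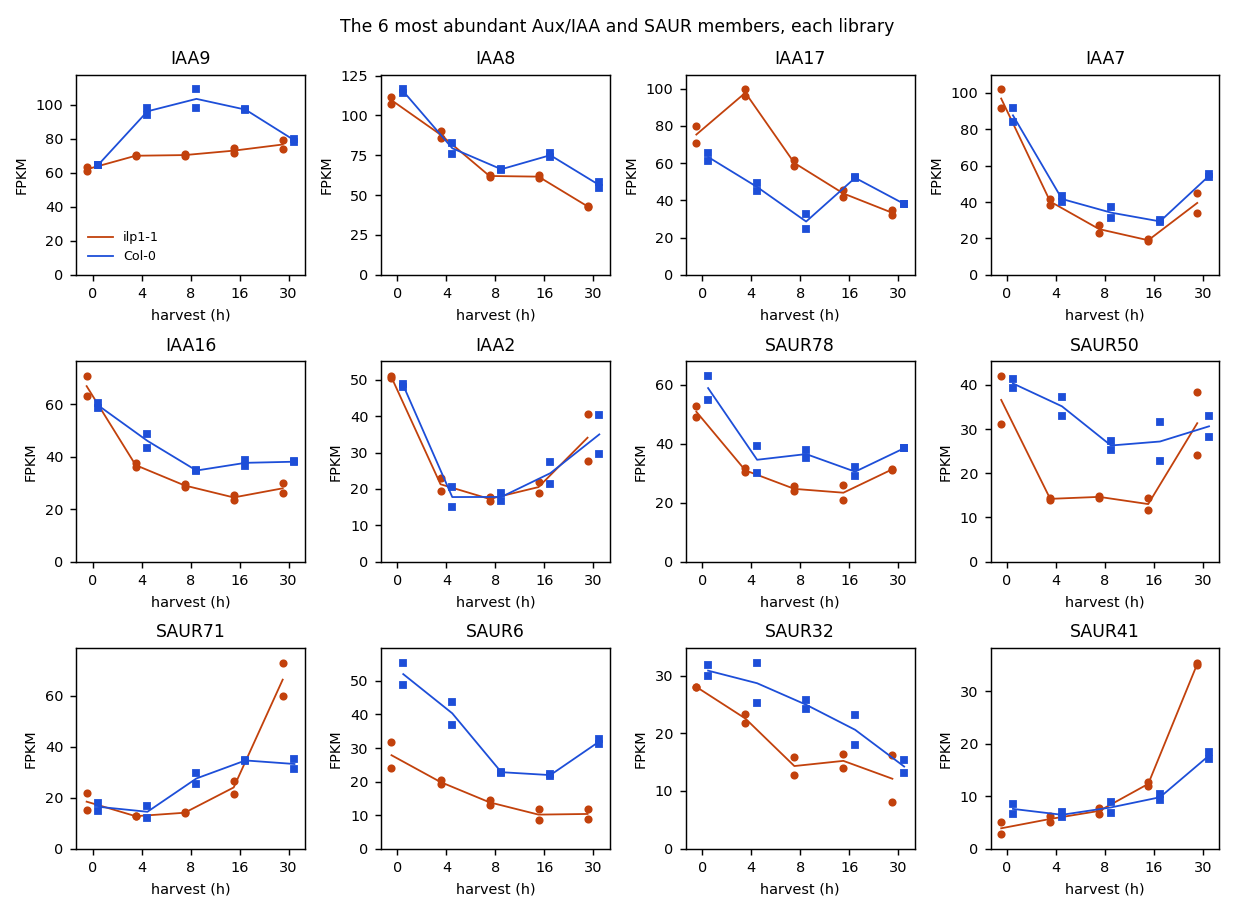
Level in FPKM of the 6 most abundant Aux/IAA and 6 most abundant SAUR genes in each library against time (h), ilp1-1 as orange circles and Col-0 as blue squares, with lines through the means of 2 libraries. IAA7, IAA8, IAA16 and IAA2 fall from 0 h in both genotypes, IAA9 rises, IAA17 is higher in ilp1-1 at 4 and 8 h, and SAUR41 and SAUR71 end highest in ilp1-1.

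The windows upstream of all 71 genes, whichever way they moved, were searched for known motifs. Those below are the 250 bases before the annotated gene start in TAIR10.1 from RefSeq, written 5′ to 3′ on the gene's strand, for 2 Aux/IAA and 2 SAUR genes that fell in high light. Each window shown holds a match to the auxin response element, found in 6 of the 48 SAUR genes. The windows shown therefore do not stand for all genes that fell. Capitals mark the auxin response element TGTCTC, the high-affinity form TGTCGG and the G-box CACGTG, each searched on both strands.
IAA1 (chr4:8360746-8360995, plus strand): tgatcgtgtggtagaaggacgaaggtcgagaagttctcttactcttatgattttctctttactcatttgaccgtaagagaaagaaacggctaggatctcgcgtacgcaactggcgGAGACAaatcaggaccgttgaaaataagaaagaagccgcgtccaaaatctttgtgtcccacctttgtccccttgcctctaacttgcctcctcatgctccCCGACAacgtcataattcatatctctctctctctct
IAA19 (chr3:5263751-5264000, plus strand): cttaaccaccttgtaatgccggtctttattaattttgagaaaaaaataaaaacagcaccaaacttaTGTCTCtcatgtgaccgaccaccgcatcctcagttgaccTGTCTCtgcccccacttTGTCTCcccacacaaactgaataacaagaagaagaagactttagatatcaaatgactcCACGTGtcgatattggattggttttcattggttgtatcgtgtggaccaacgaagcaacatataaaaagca
SAUR62 (chr1:10303419-10303668, minus strand): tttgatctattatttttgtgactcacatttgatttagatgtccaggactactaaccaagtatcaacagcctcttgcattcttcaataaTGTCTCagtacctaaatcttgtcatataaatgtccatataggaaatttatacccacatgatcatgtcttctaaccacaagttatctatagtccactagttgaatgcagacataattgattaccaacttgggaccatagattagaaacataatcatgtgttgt
SAUR66 (chr1:10320761-10321010, plus strand): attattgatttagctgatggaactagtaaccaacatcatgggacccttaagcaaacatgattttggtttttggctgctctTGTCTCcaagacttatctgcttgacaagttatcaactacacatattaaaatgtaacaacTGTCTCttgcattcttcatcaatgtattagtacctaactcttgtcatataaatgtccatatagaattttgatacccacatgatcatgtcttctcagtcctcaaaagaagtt
TGTCTC or its complement stood in this window in 34.8% of the 23 Aux/IAA genes and 12.5% of the 48 SAUR genes, and in 10.9% of all 27419 protein-coding genes. TGTCGG stood in 26.1% of the Aux/IAA genes, 4.17% of the SAUR genes and 4.16% of all genes. The G-box stood in 17.4% of the Aux/IAA genes, 0% of the SAUR genes and 6.48% of all genes. The evening element AAAATATCT stood in 0% of either family and 2.36% of all genes. These are matches of letters in a window and say nothing of binding.

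The second question was how ilp1-1 differed from Col-0. Over the mean of the 5 times, 3 of the 51 tested members were higher in ilp1-1 and 28 lower, against 29.3% and 27.8% of all tested genes. By family, 0 SAUR genes were higher and 21 of 31 lower, and 3 Aux/IAA genes were higher and 7 of 20 lower. The median difference was -0.60 (-0.61 at the floor) for the SAUR genes, -0.079 for the Aux/IAA genes and 0.013 over all genes. The 3 genes higher in ilp1-1 were IAA17 (0.38 ± 0.046, adjusted p = 3.81e-06), IAA11 (0.31 ± 0.065, adjusted p = 0.000687) and IAA12 (0.18 ± 0.050, adjusted p = 0.00549), with 0.47 for IAA11 and 0.35 for IAA12 under total-read scaling. The value of IAA17 rests on 4 h and 8 h: without the 4 ilp1-1 libraries of those times it was -0.064. The lowest 4 were SAUR20 (-1.33 ± 0.12, adjusted p = 1.85e-07), SAUR15 (-1.07 ± 0.14, adjusted p = 7.28e-06), SAUR21 (-1.05 ± 0.12, adjusted p = 2.38e-06) and SAUR6 (-1.03 ± 0.068, adjusted p = 4.44e-09). On recovered reads, where no pseudocount holds low levels down, SAUR20 was -2.12 and SAUR21 was -1.95 (limma-voom).

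At single times, 0 members were higher and 9 lower in ilp1-1 at 0 h (10.0% and 12.2% of all genes), already before high light. In high light the counts were 1 higher and 21 lower at 4 h (14.7% and 15.8%), 1 higher and 18 lower at 8 h (14.3% and 15.2%) and 1 higher and 13 lower at 16 h (11.0% and 16.7%). At 30 h they were 4 higher and 19 lower (17.2% and 16.8%). Over both families together, the share of lower calls was above that over all genes at each time. For the Aux/IAA genes alone it was 5, 20, 25, 30 and 20% at 0, 4, 8, 16 and 30 h. That is below the share over all genes at 0 h and near it at 4 h and 30 h. For the SAUR genes it was 25.8, 54.8, 41.9, 22.6 and 48.4%. The count at 0 h was 9 of 51, and it was 4 without ilp1-1 0 h replicate 1. That at 4 h was 14 without ilp1-1 4 h replicate 2, and that at 8 h was 10 without Col-0 8 h replicate 2. Scaling to total reads in place of the deposited denominators moved the median of all genes from 0.013 to 0.16 in the mean comparison and moved calls toward higher. That median was 0.14 at 4 h, 0.23 at 16 h and 0.22 at 30 h under this scaling. It gave 5 higher and 23 lower among members for the mean, 4 higher and 8 lower at 0 h, 6 higher and 17 lower at 4 h, 3 higher and 7 lower at 16 h and 8 higher and 18 lower at 30 h. The share of higher among all called genes went with it, at 65.4% in place of 45.1% at 0 h, 70.9% in place of 48.2% at 4 h, 63.1% in place of 48.5% at 8 h, 76.3% in place of 50.5% at 30 h and 78.1% in place of 39.7% at 16 h.

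Of the 51 genes, 32 were lower in ilp1-1 at 1 or more of the 5 times and 6 were higher, against 32.3% and 34.1% of all tested genes. SAUR41, SAUR71, SAUR72 and SAUR76 were in both sets. At 3 or more times 15 were lower (13.2% of all genes). SAUR6 and SAUR20 were lower at all 5 times (3.27% of all genes), and 17 members were not called at any time (38.5% of all genes), both near the share over all genes. Of the 31 SAUR genes, 8, 17, 13, 7 and 15 were lower at 0, 4, 8, 16 and 30 h, and of the 20 Aux/IAA genes 1, 4, 5, 6 and 4. The families were not compared by a test. The SAUR counts hold SAUR19 and SAUR22 in the mean, SAUR19 at 0 h, SAUR19 and SAUR22 at 4 h and SAUR22 at 30 h, and the Aux/IAA count at 4 h holds IAA34, all genes that passed the filter through Col-0. Among Aux/IAA genes, IAA1 was lower in ilp1-1 at 4, 8, 16 and 30 h (-0.53, -0.57, -0.88 and -0.99) and IAA16 at the same 4 times (-0.31, -0.25, -0.60 and -0.44). IAA7 was lower at 8, 16 and 30 h (-0.43, -0.60 and -0.46). IAA9 was lower at 4, 8 and 16 h (-0.45, -0.55 and -0.41), and IAA8 at 16 and 30 h (-0.28 and -0.38). In ilp1-1, IAA12 had 35.2 and 35.2 FPKM at 0 h, 24.8 and 22.8 at 4 h, 15.7 and 17.2 at 8 h, 18.4 and 15.5 at 16 h and 22.6 and 21.4 at 30 h. In Col-0, IAA12 had 29.5 and 27.2 FPKM at 0 h, 19.9 and 22.4 at 4 h, 14.8 and 15.7 at 8 h, 18.9 and 19.3 at 16 h and 17.2 and 13.2 at 30 h. IAA12, the BODENLOS gene of embryo patterning, was higher in ilp1-1 at 30 h (0.52 ± 0.11, adjusted p = 0.00218), with 0.34 without Col-0 30 h replicate 2. That call ended with the libraries of the contrast alone (adjusted p = 0.0727).

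**Figure D4:**
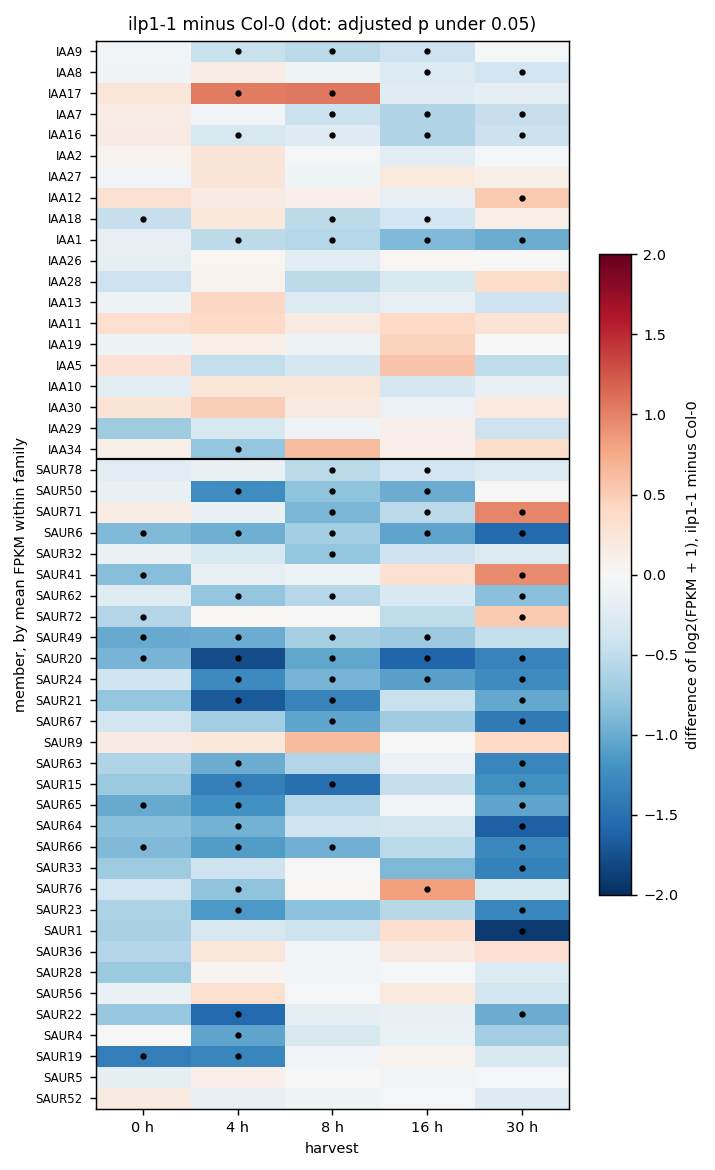
Difference of ilp1-1 minus Col-0 on the log2(FPKM + 1) scale for each tested gene at each of the 5 times (h), with a dot where the adjusted p was under 0.05. Most SAUR genes are on the lower side at most times, IAA17 is higher at 4 and 8 h, and SAUR41, SAUR71 and SAUR72 are higher at 30 h.

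**Figure D5:**
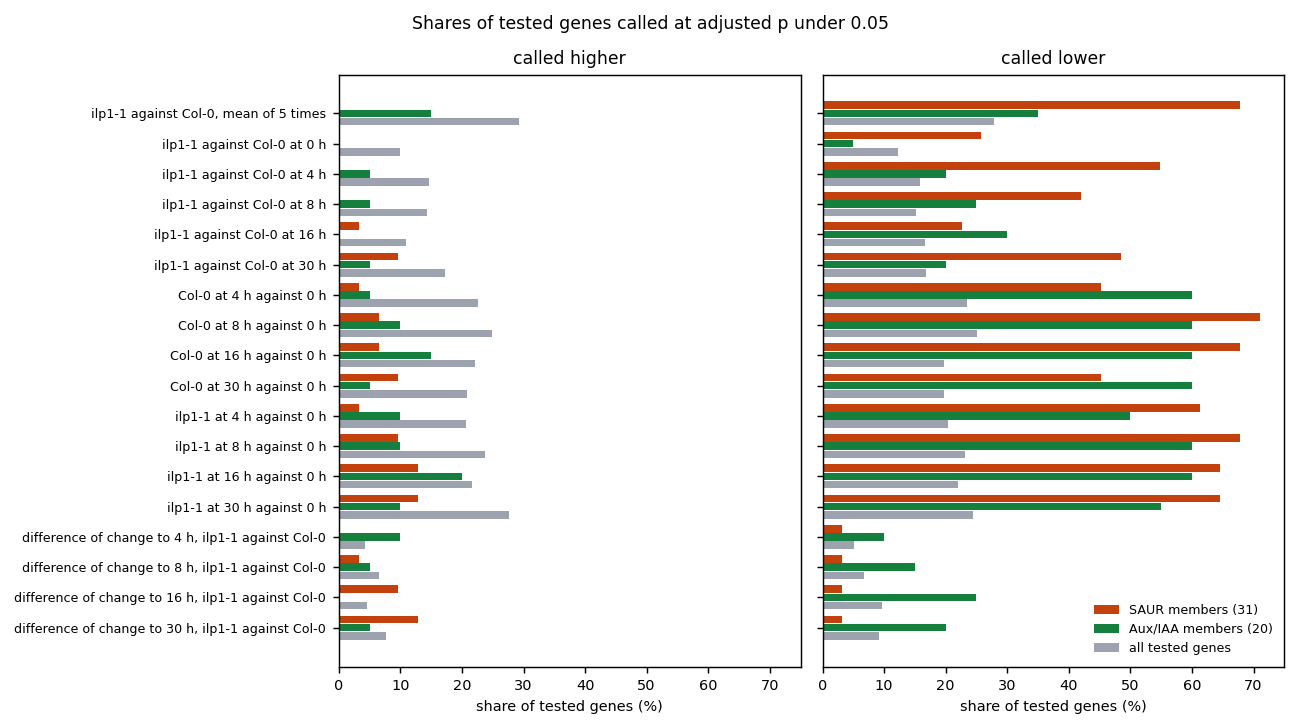
Percent of tested genes called higher or lower in each of the 18 comparisons, as bars for the 31 SAUR genes, the 20 Aux/IAA genes and all 19311 genes. In the mean genotype comparison 21 of 31 SAUR genes are called lower and 0 higher.

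The last question was whether the change from 0 h itself differed between the genotypes. Few members passed this test, and over both families together their share lay near that over all genes, so the pooled counts say little. At 4 h, 2 changed more upward in ilp1-1 than in Col-0 and 3 more downward, against 4.22% and 5.12% of all genes. At 8 h the counts were 2 and 4 (6.49% and 6.78%), at 16 h 3 and 6 (4.60% and 9.59%) and at 30 h 5 and 5 (7.65% and 9.19%). Total-read scaling gave 3 higher and 2 lower at 16 h and 6 higher and 3 lower at 30 h. The count at 4 h was 3 without Col-0 0 h replicate 2 or Col-0 4 h replicate 1, that at 16 h 5 without ilp1-1 16 h replicate 2, and that at 30 h 6 without Col-0 0 h replicate 1. By family, 10, 15, 25 and 20% of the 20 Aux/IAA genes changed more downward at 4, 8, 16 and 30 h. For the 31 SAUR genes it was 3.23% at each time. The Aux/IAA shares lay above those over all genes, a difference not tested. More upward were 10, 5, 0 and 5% of the Aux/IAA genes and 0, 3.23, 9.68 and 12.9% of the SAUR genes.

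On the upward side, IAA17 differed at 4 h and at 8 h (0.81 ± 0.14, adjusted p = 0.00145), and IAA18, whose dominant mutants have altered leaves and embryos, at 4 h (0.68 ± 0.14, adjusted p = 0.00736). In ilp1-1, IAA18 had 20.4 and 18.6 FPKM at 0 h, 11.2 and 9.72 at 4 h, 9.18 and 8.81 at 8 h, 12.5 and 13.3 at 16 h and 16.4 and 18.8 at 30 h. In Col-0, IAA18 had 25.9 and 28.9 FPKM at 0 h, 8.58 and 9.22 at 4 h, 13.8 and 13 at 8 h, 18 and 16.2 at 16 h and 16.6 and 15.6 at 30 h. IAA18 was already lower in ilp1-1 at 0 h (-0.47 ± 0.10, adjusted p = 0.00382). SAUR41 differed at 16 h (1.15 ± 0.27, adjusted p = 0.00849) and 30 h (1.80 ± 0.27, adjusted p = 0.00025) and SAUR72 at 30 h (1.10 ± 0.26, adjusted p = 0.00822). The SAUR41 call at 16 h ended with the libraries of the contrast alone (adjusted p = 0.0508), as did that of SAUR72 at 30 h with the libraries of the contrast alone (adjusted p = 0.0567). SAUR76 differed at 16 h (1.202 ± 0.34, adjusted p = 0.0261), a call that ended without ilp1-1 0 h replicate 1, ilp1-1 16 h replicate 2, Col-0 0 h replicate 2 or either Col-0 16 h library (0.87 to 1.23), and with limma-voom (adjusted p = 0.0682) or the libraries of the contrast alone (adjusted p = 0.0573). SAUR19 is counted on the upward side at 8, 16 and 30 h, but it passed the filter through Col-0 and was below 1 FPKM throughout ilp1-1, so no test of it is given here.

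On the downward side, IAA7 fell further in ilp1-1 at 8 h (-0.57 ± 0.17, adjusted p = 0.0333), 16 h (-0.75 ± 0.17, adjusted p = 0.00655) and 30 h (-0.61 ± 0.17, adjusted p = 0.0203), and IAA16 at 4 h (-0.48 ± 0.12, adjusted p = 0.0185) and 16 h (-0.77 ± 0.12, adjusted p = 0.000347). The IAA7 call at 8 h ended without ilp1-1 0 h replicate 2, ilp1-1 8 h replicate 2, Col-0 0 h replicate 2 or Col-0 8 h replicate 2 (-0.51 to -0.45), and with no filter (adjusted p = 0.0533) or the libraries of the contrast alone (adjusted p = 0.0582). That at 30 h ended without ilp1-1 0 h replicate 2, ilp1-1 30 h replicate 1, Col-0 0 h replicate 2 or Col-0 30 h replicate 2 (-0.58 to -0.41), and with the libraries of the contrast alone (adjusted p = 0.0712). IAA9 rose less in ilp1-1 at 4 h (-0.39 ± 0.087, adjusted p = 0.0102) and 8 h (-0.48 ± 0.087, adjusted p = 0.00156). SAUR71 rose at 8 h in Col-0 (0.71 ± 0.17, adjusted p = 0.002) but not in ilp1-1, where both 8 h libraries lay below both 0 h libraries. The difference of these changes was -1.06 ± 0.23, adjusted p = 0.00692. SAUR50 fell further at 4 h (-1.10 ± 0.27, adjusted p = 0.0173), which with IAA16 at 4 h was not called without ilp1-1 0 h replicate 2, ilp1-1 4 h replicate 1, Col-0 0 h replicate 2 or Col-0 4 h replicate 1 (SAUR50 -1.08 to -0.89, IAA16 -0.46 to -0.39). The IAA16 call also ended with the libraries of the contrast alone (adjusted p = 0.0652).

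At 16 h the SAUR50 difference (-0.84 ± 0.27, adjusted p = 0.0469) was not called in 16 of 20 fits that left out 1 library (-0.99 to -0.62), and held without ilp1-1 0 h replicate 1, either ilp1-1 30 h library or Col-0 16 h replicate 1. It ended as well with no filter (adjusted p = 0.0833), total-read scaling (adjusted p = 0.0942) or the libraries of the contrast alone (adjusted p = 0.0802). IAA1 fell further in ilp1-1 at 30 h (-0.83 ± 0.21, adjusted p = 0.0136), a call that ended without ilp1-1 0 h replicate 2, ilp1-1 30 h replicate 1, Col-0 0 h replicate 1 or Col-0 30 h replicate 1 (-0.73 to -0.71). SAUR6 did so too (-0.66 ± 0.22, adjusted p = 0.0474), but this was not called in 14 of 20 such fits (-0.75 to -0.47). It held without ilp1-1 0 h replicate 1, either ilp1-1 16 h library, ilp1-1 30 h replicate 2 or either Col-0 4 h library. It was also not called with no filter (adjusted p = 0.0765), total-read scaling (adjusted p = 0.08) or the libraries of the contrast alone (adjusted p = 0.107).

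Other genes of the auxin pathway were read from lists by role. The shares over all genes to set beside these counts are 29.3% higher and 27.8% lower for the mean of times, 20.6% and 20.4% at 4 h in ilp1-1 and 22.6% and 23.5% at 4 h in Col-0. For the mean of times, the counts of the receptors, the ARF genes, the transport genes and the PP2C.D phosphatases and pumps lay near these shares. They say nothing particular of those lists, and genes named from them are single values. Of 11 receptors and corepressors, 11 were tested, with 3 higher and 4 lower in ilp1-1 over the mean of times. At 4 h, relative to 0 h, there were 0 higher and 5 lower in ilp1-1 and 0 higher and 6 lower in Col-0. The receptor TIR1 was lower in ilp1-1 and the corepressor TPL higher: TIR1 (-0.41 ± 0.048, adjusted p = 2.73e-06) and TPL (0.39 ± 0.041, adjusted p = 9.77e-07). In Col-0 at 4 h, TIR1 (-1.06 ± 0.11, adjusted p = 8.01e-07), AFB3 (-0.93 ± 0.12, adjusted p = 1.45e-05) and TPL (-0.70 ± 0.092, adjusted p = 1.24e-05) fell. Of 22 ARF genes, 15 were tested, with 5 higher and 3 lower in ilp1-1 over the mean of times. Against 0 h, at 4 h there were 0 higher and 7 lower in ilp1-1 and 0 higher and 7 lower in Col-0. The activator ARF7 (0.58 ± 0.063, adjusted p = 1.11e-06) was higher in ilp1-1, as were ARF8 (0.39 ± 0.055, adjusted p = 2.34e-05) and ARF4 (0.26 ± 0.050, adjusted p = 0.000351). In Col-0 at 4 h ARF10 (-1.47 ± 0.15, adjusted p = 1.03e-06), ARF8 (-0.85 ± 0.12, adjusted p = 3.7e-05) and ARF18 (-0.84 ± 0.17, adjusted p = 0.000744) fell. Of the 6 Aux/IAA genes whose description does not match the rule, 4 were tested, with 0 higher and 1 lower in ilp1-1 over the mean of times. By 4 h there were 0 higher and 2 lower in ilp1-1 and 0 higher and 3 lower in Col-0. IAA4 (-0.41 ± 0.044, adjusted p = 1.21e-06) was the one lower in ilp1-1. In Col-0 at 4 h IAA4 (-0.94 ± 0.099, adjusted p = 1.3e-06), IAA14 (-1.47 ± 0.16, adjusted p = 1.44e-06) and IAA3 (-0.64 ± 0.16, adjusted p = 0.00315) fell.

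Downstream of the SAUR19 group, all 13 listed PP2C.D phosphatases and proton pumps were tested, with 4 higher and 4 lower in ilp1-1 over the mean of times. With 0 h as base, at 4 h there were 1 higher and 5 lower in ilp1-1 and 2 higher and 5 lower in Col-0. The phosphatase PP2C.D8 (0.53 ± 0.075, adjusted p = 2.16e-05) and the pump AHA1 (0.20 ± 0.038, adjusted p = 0.000299) were higher in ilp1-1, and PP2C.D2 (-0.20 ± 0.042, adjusted p = 0.000724) was lower. In Col-0 at 4 h PP2C.D1 (-2.38 ± 0.21, adjusted p = 1.7e-07), PP2C.D6 (-0.64 ± 0.094, adjusted p = 4.35e-05) and PP2C.D5 (-0.47 ± 0.086, adjusted p = 0.000325) fell. Upstream, 3 of 14 synthesis genes were tested, with 0 higher and 1 lower in ilp1-1 over the mean of times. At 4 h against 0 h there were 0 higher and 1 lower in ilp1-1 and 0 higher and 0 lower in Col-0. The aminotransferase TAR2 (-0.75 ± 0.067, adjusted p = 1.52e-07) was the one lower in ilp1-1. Conjugation and turnover genes were tested for 13 of 16, with 3 higher and 2 lower in ilp1-1 over the mean of times. After 4 h of high light there were 5 higher and 4 lower in ilp1-1 and 2 higher and 6 lower in Col-0. The hydrolase genes IAR3 (0.40 ± 0.072, adjusted p = 0.000224) and ILR1 (0.34 ± 0.088, adjusted p = 0.00417) were higher in ilp1-1 and GH3.9 (-0.31 ± 0.078, adjusted p = 0.00337) was lower. At 4 h in Col-0 GH3.5 (-1.28 ± 0.18, adjusted p = 2.05e-05), IAMT1 (-1.45 ± 0.21, adjusted p = 3.92e-05) and GH3.9 (-1.0003 ± 0.17, adjusted p = 0.000215) fell. Of 16 transport genes, 14 were tested, with 5 higher and 5 lower in ilp1-1 over the mean of times. At the 4 h harvest there were 2 higher and 5 lower in ilp1-1 and 1 higher and 4 lower in Col-0. ABCB4 (0.89 ± 0.083, adjusted p = 2.41e-07) and ABCB1 (0.32 ± 0.041, adjusted p = 7.42e-06) were higher in ilp1-1 and PIN4 (-0.55 ± 0.061, adjusted p = 1.77e-06) was lower. At 4 h in Col-0 PIN4 (-1.35 ± 0.14, adjusted p = 8.12e-07), PIN3 (-0.97 ± 0.10, adjusted p = 1.18e-06) and LAX3 (-0.89 ± 0.25, adjusted p = 0.00831) fell.

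The families also differ in gene structure. Of the 48 SAUR genes, 46 have 1 coding exon. Over the mean of 5 times, 0% of the 30 tested SAUR genes with 1 coding exon were called higher and 66.7% lower in ilp1-1. Among the 3205 other tested genes with 1 coding exon, 13.4% were called higher and 36.9% lower. Among the 14908 with 2 or more, 33.2% were called higher and 26.7% lower. At single times the share called lower was 26.7%, 56.7%, 43.3%, 23.3% and 46.7% of those SAUR genes at 0, 4, 8, 16 and 30 h, against 14.6%, 19.1%, 18%, 19.5% and 18.4% of the other genes of 1 coding exon. At 16 h the shares were close. These SAUR genes include SAUR19, SAUR22 and SAUR52, which passed the filter through Col-0. Lower calls of SAUR19 or SAUR22 are part of the SAUR shares for the mean and for 0, 4 and 30 h. The difference of the SAUR genes from other genes of 1 exon was not tested.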

How the data were processed

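Gene expression was measured in 20 leaf libraries (5 times, 2 genotypes, 2 libraries each; groups follow the labels). The authors deposited 10 FPKM tables of 33104 genes. Reads were handled with HISAT2 2.0.5 and featureCounts 1.5.0-p3 on TAIR10, per the submitters' processing notes, and the strand setting of counting is not given in the sources used here. FPKM times gene length was whole multiples of 1 step (tolerance 0.001 reads, largest distance 7.82e-05), which gave back reads, 11.39 to 18.95 M a library. The deposited denominators were 0.889 to 1.18 times these. In all 20 libraries they were proportional to a size factor computed from the recovered reads. This factor is the median over genes of the ratio of a library's reads to the gene's geometric mean. 0 columns of other samples were present. Genes with at least 1 FPKM in at least 2 libraries (19311) were fitted as log2(FPKM + 1) with limma 3.58.1 in R 4.3.3 (10 group means, 18 contrasts, eBayes with trend, 10 residual degrees of freedom, and prior ones with a median of 5.12), with Benjamini-Hochberg adjustment per contrast at 0.05. The fit was tested on simulated data. Further tools were pandas 2.3.3, numpy 2.4.6 and matplotlib 3.10.9 under Python 3.11.15. Symbols came from the tables for 47 members, from a description for 1 and from RefSeq for 23. Of 32548 genes shared with RefSeq's TAIR10.1, 32532 had the same start and end. Members and gene lists were chosen with earlier results of these data known. Named members were, for each comparison of genotypes or times, the 4 highest and 4 lowest called members whose higher group reached 2 FPKM, for each difference of changes the 3 highest and 3 lowest, and the 6 most abundant of each family; of other lists, up to 3 genes by smallest adjusted p in the mean genotype comparison or in Col-0 at 4 h. Other members, such as IAA2, IAA19, IAA29 and SAUR23, were chosen after their values were seen. Alternatives were a pseudocount of 0.1, no filter, total-read scaling, limma-voom on recovered reads, a replicate block, the libraries of the contrast alone, each library left out and, chosen after seeing the data, no ilp1-1 libraries of 4 h and 8 h. Same-numbered libraries did not deviate together (90 pairs of libraries, correlations -0.148 to 0.126, 2 above 0.1), so numbers were not taken to pair libraries. The deviations of the 2 libraries of a group mirror each other, so each correlation is counted 2 times among these pairs.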

Additional observations from a re-analysis of the deposited data

Results flagged for a closer look

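Listed here are 22 values for the difference between ilp1-1 and Col-0 in the change from 0 h. They are, at each time, up to 3 highest and 3 lowest of the called members with a group mean of at least 2 FPKM (limma, adjusted p under 0.05). More members were called at 8, 16 and 30 h, as counted above. The 3 values of SAUR19 are listed but are not tested differences, as set out below. A positive value means a change further upward in ilp1-1, on the log2(FPKM + 1) scale. At 4 h the differences were 0.79 for IAA17, 0.68 for IAA18, -1.10 for SAUR50, -0.48 for IAA16 and -0.39 for IAA9. At 8 h the differences were 1.32 for SAUR19, 0.81 for IAA17, -1.06 for SAUR71, -0.57 for IAA7 and -0.48 for IAA9. At 16 h the differences were 1.45 for SAUR19, 1.202 for SAUR76, 1.15 for SAUR41, -0.84 for SAUR50, -0.77 for IAA16 and -0.75 for IAA7. At 30 h the differences were 1.80 for SAUR41, 1.10 for SAUR72, 1.07 for SAUR19, -0.83 for IAA1, -0.66 for SAUR6 and -0.61 for IAA7. The SAUR19 value at 16 h rests on the pseudocount, since both Col-0 libraries of that time are listed at 0. SAUR19 passed the filter on low values through Col-0 and was below 1 FPKM in every ilp1-1 library, so its values carry no independent test. All 3 lost their call with a pseudocount of 0.1 and with limma-voom on recovered reads. At 4 h and 8 h the ilp1-1 libraries also had the raised share of plastid reads, whose part was not tested. No group has more than 2 libraries, so none could be searched for a library far from the others.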

How the results depend on the processing

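Of 117 named values, 83 kept their call under every alternative, 25 lost it in 1 or more settings and 24 without 1 library. Values that lost their call numbered 6 of 117 with limma-voom, 4 with no filter, 6 with a pseudocount of 0.1, 2 with total-read scaling and 19 of 110 with the libraries of the contrast alone, which give no mean comparison. Sizes moved by over 1.5 times for 21 values with limma-voom and 14 with a pseudocount of 0.1, mostly SAUR genes at low levels, and for IAA11 and IAA12 in the mean comparison with total-read scaling. One sign turned: IAA17 in the mean comparison was -0.064 (adjusted p = 0.435) once the 4 ilp1-1 libraries from 4 h and 8 h were left out. The count of 9 members at 0 h between genotypes was 14 with limma-voom and 5 with its own libraries. The difference of changes at 16 h had 5 members with total-read scaling and 5 with its own libraries, and that at 30 h had 5 with its own libraries. With 1 library left out, counts between genotypes ran from 30 to 31 for the mean, 4 to 12 at 0 h, 14 to 23 at 4 h, 10 to 20 at 8 h, 11 to 17 at 16 h and 19 to 25 at 30 h. Against 0 h they ran from 24 to 33, 33 to 40, 36 to 41 and 31 to 37 at 4, 8, 16 and 30 h in ilp1-1 and 25 to 29, 31 to 39, 31 to 39 and 26 to 31 in Col-0. Differences of changes ran from 3 to 6, 4 to 7, 5 to 9 and 6 to 11. With the replicate number as a block, SAUR6 at 30 h (-0.66 as a difference of changes) lost its call, and no other call changed; the numbers do not pair libraries. The cause of these shifts was not tested. No detection limit was computed at this depth, and a gene that was not called is not shown to be unchanged.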
